A study of Mus musculus with 9 samples.

Results

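The genes described here are 10 genes of glutathione conjugation and detoxification, namely Gstm1, Gstm5, Gstm7, Gsta4, Gstp1, Glo1, Gpx1, Gpx4, Gclc and Nqo1. They were found by gene name among the 54532 genes of the deposited count table, where all 10 were present, and all 10 were among the 19782 genes that passed the filter on low counts. Gstm1 and Glo1 were picked because the study lists them as raised in this same comparison, so their values are given as a description without a test. The other 8 genes were chosen by function, with earlier results of these data known.

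RNA was sequenced from the hippocampus of 9 N4 Ube3am-/p+ mice, a model of Angelman syndrome with a Ube3a mutation on the maternal allele, derived from the strain B6.129S7-Ube3atm1alb/J by 4 generations of backcrossing onto 129Sv/Ev. At P21, 5 mice received Ant-134, a cholesterol-tagged locked nucleic acid antisense oligonucleotide against the microRNA miR-134, and 4 mice received Scr, a scrambled oligonucleotide, each as 0.5 nmol into the cerebral ventricle. All 9 mice carried the maternal Ube3a mutation and all underwent audiogenic seizure tests at P22, P24 and P26, so neither group shows these genes in a wild-type brain or in a brain without seizure tests. The study reports less severe seizures in Ant-134 mice over these tests. The groups may therefore differ in seizure history as well as in oligonucleotide, and these cannot be told apart here. Each sample was 1 hippocampus from the injected side of 1 mouse, taken 24 h after the last test, and the labels do not give the sex of the mice. The mutation is present in every cell type, and the tissue was not sorted. Totals of counted reads ran from 28583298 to 38431058 per Ant-134 library and from 31985959 to 41978113 per Scr library.

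Glutathione is a small thiol that cells use to capture reactive chemicals. Glutathione transferases join it to electrophiles, glutathione peroxidases use it to reduce peroxides, and glyoxalase 1 uses it to remove methylglyoxal, a reactive by-product of glycolysis. Many genes of this system respond to the transcription factor Nrf2, which binds antioxidant response elements in their promoters, and in the brain much of the supply of glutathione is attributed to astrocytes.

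The motif TGACNNNGC, the core of the antioxidant response element, was searched on both strands of the RefSeq promoter windows (GRCm38.p6, 250 bases before to 50 bases after each start). Windows were found for 8 of the 10 genes, and those of Gsta4 and Gclc were not analysed here. The motif was present for 2 of these 8 genes, Gstm5 and Gstm7, against 14% of the 27025 genes with a window. Both matches are printed because Gstm5 and Gstm7 are neighbours in the cluster described below, with the motif in capitals and each sequence 5′ to 3′ on the strand of its gene. The Gstm5 sequence is at chr3:107895802-107895831 on the plus strand, and the Gstm7 sequence is at chr3:107931724-107931753 on the minus strand.
Gstm5: caccgcccacTGACCACGCggagggcgggt
Gstm7: tctgaagaccTGACAAAGCgaagccaatcc
The centre of the match lay 38 bases before the start of Gstm5 and 125 bases before 1 of the 2 annotated starts of Gstm7. No match was found in the windows of Gstm1, Gstp1, Glo1, Gpx1, Gpx4 and Nqo1, which says only that these letters were absent from those windows.

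The oligonucleotide targets miR-134, whose mature sequence in RefSeq lies at chr12:109734145-109734166 on the plus strand. It is printed with its seed, bases 2 to 8, in capitals.
mmu-miR-134-5p: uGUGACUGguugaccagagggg
Sites complementary to this seed, CAGTCAC or AGTCACA on the transcript strand, were searched in the longest 3′ UTR that GENCODE M21 gives for each gene. Glo1 was the single gene of the 10 with a match and held 2, at chr17:30587899-30587905 and at chr17:30585673-30585679 on the minus strand, each shown with flanking bases and the site in capitals.
Glo1 site 1: atgcggctgctCAGTCACtgcactgcactt
Glo1 site 2: tgaaaaaaagcCAGTCACtaaggactgctg
Both sites lie in a 9202-base 3′ UTR that extends past the end of the Glo1 gene in the deposited table (chr17:30592866-30612659). Within the deposited gene the longest 3′ UTR of Glo1 has 1633 bases and no site. Over the 15308 tested genes with a 3′ UTR, 20.9% held a site, and their median 3′ UTR was 1332 bases, whereas those of the other 9 genes had between 66 and 1234 bases. The precursor gene Mir134 had 0 counts in all 9 libraries, but poly-A libraries do not measure mature miR-134, so its knockdown could not be checked here. Ube3a, mutated on the maternal allele in both groups, was at 90.2 ± 6.26 CPM (SD, n = 5; CPM are counts scaled by library size) with Ant-134 and at 92.4 ± 4.81 CPM (SD, n = 4) with Scr.

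The 10 genes differed widely in level. By deposited FPKM, which is scaled to gene length and allows genes to be compared, the mean over the 9 mice was highest for Gpx4 at 118, followed by Gstm1 at 107, Gstm5 at 82.5, Gstp1 at 81.5 and Glo1 at 81.3. Gpx1 followed at 43.6, Gsta4 at 22.5, Gclc at 15.5, Gstm7 at 10.7 and Nqo1 at 1.78, so the highest mean was 66.3 times the lowest. The 5 most abundant transcripts thus encode a lipid peroxidase, a mu-class transferase and its relative in the same cluster, the pi-class transferase and glyoxalase 1, and the least abundant transcript encodes the quinone reductase.
Among the 5 highest genes the FPKM ranges of neighbours in this order overlapped, although Gpx4 was above Gstm1 in 8 of the 9 mice and Gstm1 was above Gstm5 in all 9. From Glo1 downwards the range of each gene lay wholly above that of the next gene. Among the 19782 tested genes ranked by mean FPKM, Gpx4 was 282nd, Gstm1 was 333rd and Nqo1 was 12235th.

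**Figure D1:**
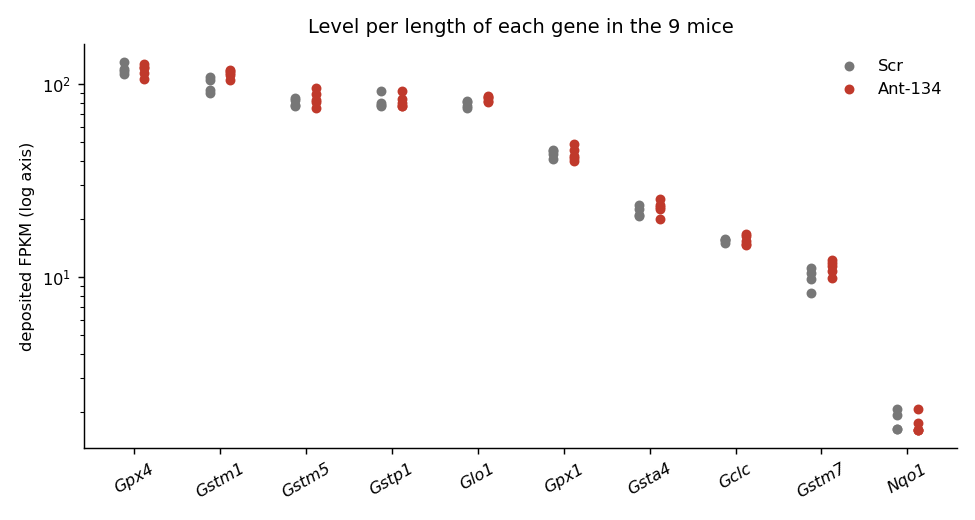
Deposited FPKM of the 10 genes on a log axis, 1 point per mouse, grey for Scr (n = 4) and red for Ant-134 (n = 5), ordered by the mean over the 9 mice. Means run from 118 for Gpx4 to 1.78 for Nqo1, and the points of the 2 groups overlap for every gene.

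Whether the transcript level of these genes differed between the groups was asked with a quasi-likelihood test in edgeR, fitted over all 19782 genes. Of the 8 genes chosen by function, 0 had an unadjusted p value below 0.05, against 4.18% of all genes tested (827 genes, with 1.49% called higher and 2.69% called lower). DESeq2, which called 2.74% of its 37435 genes, likewise called 0 of the 8. So did limma on FPKM, which called 1083 of 23670 genes with a pseudocount of 1 and 1101 with a pseudocount of 0.1. Without its filter limma called 1467 of 37454 genes and again 0 of the 8. The Ant-134 mean was above the Scr mean for 4 of the 8 and below it for 4, with a median log2 fold change of 0.0047 against 0.0026 over all genes. All 8 fold changes were below 0.2 in size, which was so for 80.2% of all genes. After Benjamini-Hochberg adjustment over all genes edgeR called 0 genes and DESeq2 called 16, and the smallest adjusted p value in edgeR among the 8 was 0.998. Of the 8 genes, 0 had groups that did not overlap, against 1.54% of all genes. The groups overlapped for Gstm1 and Glo1 too, which is given as a description.

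**Figure D2:**
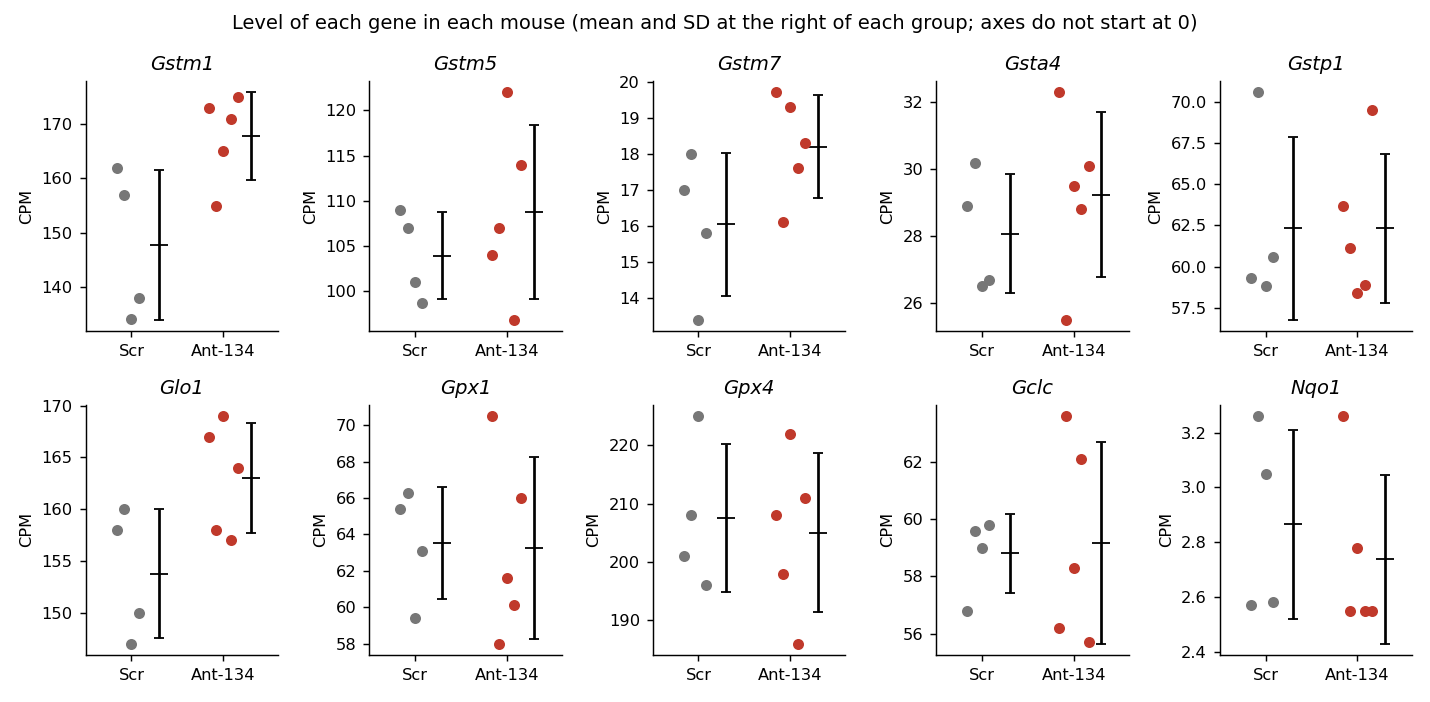
CPM after TMM scaling for each of the 10 genes, 1 point per mouse, grey for Scr (n = 4) and red for Ant-134 (n = 5), with the mean and SD beside each group. The axes do not start at 0. The groups overlap in each of the 10 plots, and Scr replicate 3 is the lowest point for Gstm1, Gstm7 and Glo1.

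Gstm1, a mu-class glutathione transferase that conjugates a broad range of electrophiles, lies at chr3:108012255-108017973 on the minus strand. Its level was 173, 155, 165, 171 and 175 CPM in Ant-134 replicates 1 to 5 and 162, 157, 134 and 138 CPM in Scr replicates 1 to 4. All Ant-134 mice but 1 lay above every Scr mouse, and Ant-134 replicate 2 lay below Scr replicates 1 and 2. Means were 168 ± 8.12 CPM (SD, n = 5) and 147 ± 14.0 CPM (SD, n = 4), a log2 fold change of 0.18 with a standard error (SE) of 0.060, or 13.6%. Without Scr replicate 3, the lowest mouse, the log2 fold change was 0.14, and over the 9 fits that each left out 1 mouse it ranged from 0.14 to 0.23. The 3 genes whose log2 CPM followed that of Gstm1 most closely over the 9 mice were Gm43852 (r = 0.967), Gpr137b (r = 0.962) and Fn3krp (r = 0.96). These are the highest of 19763 correlations, over genes with a count in every library and among libraries that share their scaling, and they are given as a description. They were taken over both groups together, so a difference between the groups enters them, and the 3 genes had log2 fold changes of 0.61, 0.12 and 0.09. Gm43852 was low, at 0.45 CPM with Ant-134 and 0.293 CPM with Scr.

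Summed CPM of 10 astrocyte markers ran from 5417 to 6281 in Ant-134 mice and from 5492 to 6576 in Scr mice, with 5 markers higher, 5 lower and 0 called at an unadjusted p value below 0.05 in edgeR. In bulk tissue fewer cells of a type and less RNA per cell cannot be told apart. Of the 10 microglial markers, all had a negative log2 fold change, edgeR called 6 at an unadjusted p value of 0.05, against 2.69% of all genes called lower, and 0 passed after adjustment, and their sum was between 508.9 and 540.8 CPM in the Ant-134 group against 578.5 to 656.9 CPM in the Scr group. All 8 meningeal fibroblast markers were also on the lower side, 4 of them with an unadjusted p value below 0.05, against the same 2.69%, and 0 after adjustment. Their median log2 fold change was −0.426, for 2 of the 8 every Ant-134 mouse was below every Scr mouse, as for 0.895% of all genes, and their sum was between 124.5 and 216.4 CPM against 189.5 to 242.6 CPM. Choroid plexus markers varied between single mice of both groups, from 68.97 to 2577 CPM and from 81.86 to 2029 CPM. Neuron markers summed to between 6431 and 6879 CPM against 6229 to 6744 CPM, with 9 of 10 on the higher side and 1, Eno2, which the study also lists as raised in these samples, called higher at an unadjusted p value of 0.05 in edgeR, against 1.49% of all genes. Markers of hippocampal principal neurons were on the higher side for 7 of 8, with a median log2 fold change of 0.086 and 0 called in edgeR, and their sum was 1217 to 1408 CPM against 1121 to 1263 CPM. All 5 erythrocyte markers were on the higher side, with a median of 1.011 and 0 called, and summed to 69.02 to 403.1 CPM against 44 to 91.69 CPM. Of the 6 ependyma markers 5 were on the lower side and 1 was called lower, against 2.69% of all genes. The Ant-134 mice lay wholly below the Scr mice for 1 of the 6, as for 0.895% of all genes, and the 6 summed to 27.76 to 45.68 CPM against 34.74 to 44.5 CPM. Oligodendrocyte markers summed to 7503 to 12650 CPM against 9449 to 10160 CPM, with 6 of 8 on the higher side and 0 called. No marker of any list was at 0 in all libraries. The part of these markers in the levels of the 10 genes was not tested.

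Gstm5, a more distant mu-class enzyme, lies at chr3:107895821-107898686 on the plus strand. Its level was 104, 107, 122, 96.8 and 114 CPM in the Ant-134 mice and 109, 107, 101 and 98.7 CPM in the Scr mice. The Ant-134 mice spanned the whole range of the Scr mice. The log2 fold change came to 0.06 (SE 0.060), and the 95% interval ran from −0.06 to 0.19 (edgeR, unadjusted p = 0.302). It was 0.018 without Ant-134 replicate 3, the highest mouse, and 0.10 without replicate 4 of that group, the lowest. Gstm5 overlaps 4933431E20Rik, a gene on the opposite strand with 2205 to 3190 counts per library and a log2 fold change of 0.01. The strand setting of the counting is not given in the sources used here, so reads in the overlap may belong to either gene.

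Gstm7, another mu-class transferase, lies at chr3:107926334-107931817 on the minus strand. It was at 19.7, 16.1, 19.3, 17.6 and 18.3 CPM in the Ant-134 mice and at 17.0, 18.0, 13.4 and 15.8 CPM in the Scr mice. As for Gstm1, Ant-134 replicate 2 was the lowest of its group and Scr replicate 3 the lowest of all mice. On the log2 scale the groups differed by 0.18, with an SE of 0.089, and the 95% interval ran from −0.01 to 0.37 (edgeR, unadjusted p = 0.0632, adjusted p = 0.998). The value rested in part on single mice, since it was 0.10 without Scr replicate 3, whereas it was 0.22 without Ant-134 replicate 2 and 0.24 without Scr replicate 2, where the unadjusted p values of edgeR were 0.0297 and 0.023.

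These 3 genes belong to the Gstm cluster, 149 kb on chromosome 3 (chr3:107895821-108044894) that holds 7 Gstm genes. Of the 16 genes of the table that lie wholly in this interval, the 6 tested genes were all Gstm genes, while 4933431E20Rik reaches into it at the Gstm5 end, and Gstm3 was not tested, at 0 to 4 counts. Outside the 10 genes, Gstm4 was at 9.63, 9.38, 9.79, 9.69 and 10.5 CPM in the Ant-134 mice and at 7.93, 9.2, 8.36 and 8.05 CPM in the Scr mice. Every Ant-134 mouse was above every Scr mouse, as for 0.647% of all genes. Gstm4 differed by 0.22 on the log2 scale, with an SE of 0.085 (edgeR, unadjusted p = 0.0199, adjusted p = 0.998), and the unadjusted p value was below 0.05 in 7 of the 9 fits without 1 mouse. It was 0.0579 without Scr replicate 1 and 0.05 without Scr replicate 4. Gstm6 had a log2 fold change of 0.24 with a standard error of 0.18 (unadjusted p = 0.201), and Gstm2 had −0.29 with a standard error of 0.27 (unadjusted p = 0.312). Gstm2 and Gstm6 had 29 to 125 and 70 to 153 counts per library, and their groups overlapped. With Ant-134 replicate 1 left out the value of Gstm2 was −0.45, and with replicate 4 of that group left out it was −0.11. With Scr replicate 1 left out the value of Gstm6 was 0.13, and with Scr replicate 4 left out it was 0.37.
Coding sequences of Gstm1 and its relatives are similar, with 89.5% identity to Gstm3, 86.0% to Gstm2, 82.8% to Gstm6, 82.6% to Gstm7, 80.8% to Gstm4 and 71.8% to Gstm5. Nevertheless, no stretch of 150 bases, the length of a read, of the Gstm1, Gstm4 or Gstm7 transcripts was found in the transcript of another gene in GENCODE M21.

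**Figure D3:**
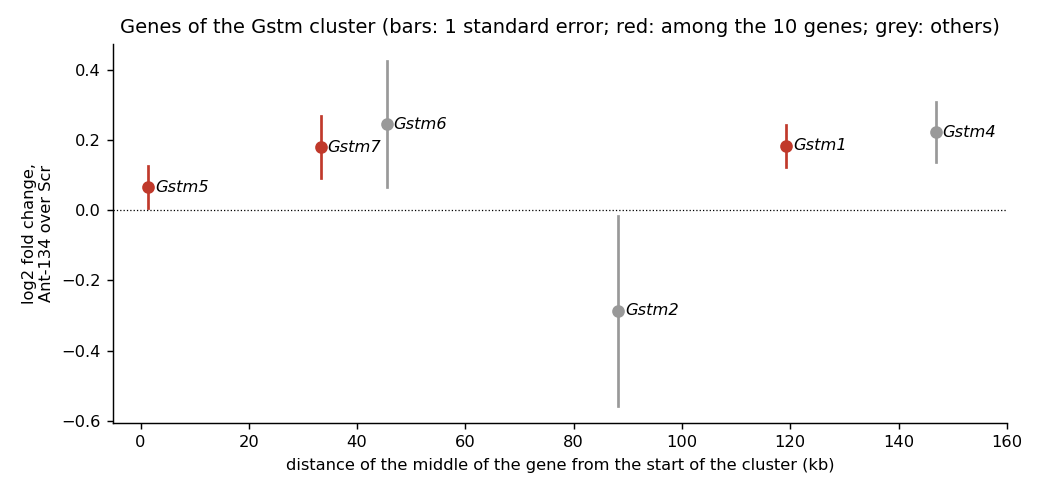
Log2 fold change (Ant-134 over Scr, edgeR) of the 6 tested Gstm genes against their distance in kb from the start of the 149 kb cluster, with bars of 1 standard error, red for Gstm5, Gstm7 and Gstm1 and grey for Gstm6, Gstm2 and Gstm4. Values run from −0.29 for Gstm2 to 0.24 for Gstm6.

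Gsta4, an alpha-class transferase that conjugates the lipid peroxidation product 4-hydroxynonenal, lies at chr9:78182774-78209349. It was at 32.3, 25.5, 29.5, 28.8 and 30.1 CPM in the Ant-134 mice and at 28.9, 30.2, 26.5 and 26.7 CPM in the Scr mice. Both the highest and the lowest mouse were Ant-134 mice. The fitted difference was 0.06 on the log2 scale, with an SE of 0.070, and the 95% interval ran from −0.09 to 0.21 (edgeR, unadjusted p = 0.419). This value was 0.020 without Ant-134 replicate 1, the highest mouse, and 0.10 without replicate 2 of that group, the lowest.

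Gstp1, the pi-class transferase, lies at chr19:4035407-4037921. It was at 63.7, 61.1, 58.4, 58.9 and 69.5 CPM in the Ant-134 mice and at 59.3, 70.6, 58.8 and 60.6 CPM in the Scr mice. Each group held 1 mouse near 70 CPM, and the others lay close together. The log2 fold change came to −0.001 (SE 0.065), and the 95% interval ran from −0.14 to 0.14 (edgeR, unadjusted p = 0.988).
The count of Gstp1 is uncertain where reads fit a copy. Its coding sequence is 98.1% identical to that of Gstp2, and 41.8% of the 150-base stretches of its transcript occur in Gstp2 or in the pseudogene Gstp-ps. Gstp3, the other pi-class gene, had 0 to 2 counts per library and was not tested. Gstp2 had 0 to 39 counts, with 39 in Ant-134 replicate 4, whereas Gstp-ps had 221 to 352, so that 12.1% of the counts of the 3 genes lay in the copies. With these counts added to those of Gstp1, a choice made after the data had been seen, the log2 fold change was 0.018 (edgeR, unadjusted p = 0.777).

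Glo1, which encodes glyoxalase 1, was at 167, 158, 169, 157 and 164 CPM in the Ant-134 mice and at 158, 160, 147 and 150 CPM in the Scr mice. Ant-134 replicates 1, 3 and 5 were above every Scr mouse, and the other two lay close to Scr replicates 1 and 2. Means were 163 ± 5.18 CPM (SD, n = 5) and 154 ± 6.08 CPM (SD, n = 4), a log2 fold change of 0.085 with a standard error of 0.042, or 6.08%. Without 1 mouse at a time it ranged from 0.066, without Scr replicate 3, to 0.11. Glo1 had the smallest spread between mice of a group among the 10 genes, with a coefficient of variation of 3.53%.
Of the 150-base stretches of its transcript, 24.3% occur in the pseudogene Gm13443 on chromosome 2, which had 293 to 463 counts per library, or 6.01% of the counts of both. With both summed the log2 fold change of Glo1 was 0.083.
The tested genes next to Glo1 were Gm9874 and Btbd9 on one side and Dnah8 and Glp1r on the other. Btbd9 is on the same strand and was at 131 ± 3.19 CPM (SD, n = 5) with Ant-134 and 126 ± 4.71 CPM (SD, n = 4) with Scr, for a log2 fold change of 0.05 with a 95% interval from −0.04 to 0.13 (edgeR, unadjusted p = 0.258). The unadjusted p values of the other 3 were 0.101 (Gm9874), 0.534 (Dnah8) and 0.127 (Glp1r). The 3 genes most like Glo1 over the 9 mice were Kcnk1 (r = 0.954), Limd2 (r = 0.937) and Mad2l1bp (r = 0.935), again as a description over both groups together. Their log2 fold changes were 0.09, 0.09 and 0.25.

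Gpx1, the cytosolic glutathione peroxidase that reduces hydrogen peroxide, lies at chr9:108338903-108340343. It was at 70.5, 58.0, 61.6, 60.1 and 66.0 CPM in the Ant-134 mice and at 65.4, 66.3, 59.4 and 63.1 CPM in the Scr mice. The Scr mice lay wholly within the range of the Ant-134 mice. On the log2 scale the groups differed by −0.01, with an SE of 0.059, and the 95% interval ran from −0.13 to 0.12 (edgeR, unadjusted p = 0.902).

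Gpx4, which reduces lipid peroxides in membranes and protects cells from ferroptosis, lies at chr10:80047166-80056439. It was at 208, 198, 222, 186 and 211 CPM in the Ant-134 mice and at 201, 208, 225 and 196 CPM in the Scr mice. Scr replicate 3, the lowest mouse for Gstm1, Gstm7 and Glo1, was the highest for Gpx4. The fitted difference was −0.02 on the log2 scale, with an SE of 0.056, and the 95% interval ran from −0.14 to 0.10 (edgeR, unadjusted p = 0.752). Of the 150-base stretches of its transcript, 40.4% occur in the pseudogene Gpx4-ps2, which had 986 to 1401 counts per library, or 14.5% of the counts of both, and with both summed the log2 fold change of Gpx4 was −0.012.

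Gclc encodes the catalytic subunit of the enzyme that limits the rate of glutathione synthesis and lies at chr9:77754535-77794485. It was at 56.2, 63.6, 58.3, 62.1 and 55.7 CPM in the Ant-134 mice and at 56.8, 59.6, 59.0 and 59.8 CPM in the Scr mice. The Scr mice lay close together, inside the wider range of the Ant-134 mice. The log2 fold change came to 0.01 (SE 0.049), and the 95% interval ran from −0.10 to 0.12 (edgeR, unadjusted p = 0.837).

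Nqo1, a quinone reductase often used as a readout of Nrf2, lies at chr8:107388225-107403206. It was at 3.26, 2.55, 2.78, 2.55 and 2.55 CPM in the Ant-134 mice and at 2.57, 3.26, 3.05 and 2.58 CPM in the Scr mice. The highest level was the same in both groups. On the log2 scale the groups differed by −0.07, with an SE of 0.15, and the 95% interval ran from −0.38 to 0.24 (edgeR, unadjusted p = 0.644). With 77 to 138 counts per library, counting error alone gives a coefficient of variation of 10.3%, against 11.6% between mice of a group.

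Beside Gstm1, Glo1 and Nqo1, the levels of Gstm5, Gstm7, Gsta4, Gstp1, Gpx1, Gpx4 and Gclc varied by 4.75% to 10.1% between mice of a group. No mouse stood apart over all 10 genes. Ant-134 replicate 1 was the highest mouse for Gstm7, Gsta4 and Gpx1, Ant-134 replicate 2 was the lowest for Gsta4 and Gpx1 and the highest for Gclc, and Scr replicate 2 was the highest for Gstp1. For Nqo1, Scr replicate 2 and Ant-134 replicate 1 tied within rounding as the highest, and Ant-134 replicates 2, 4 and 5 tied as the lowest.

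**Figure D4:**
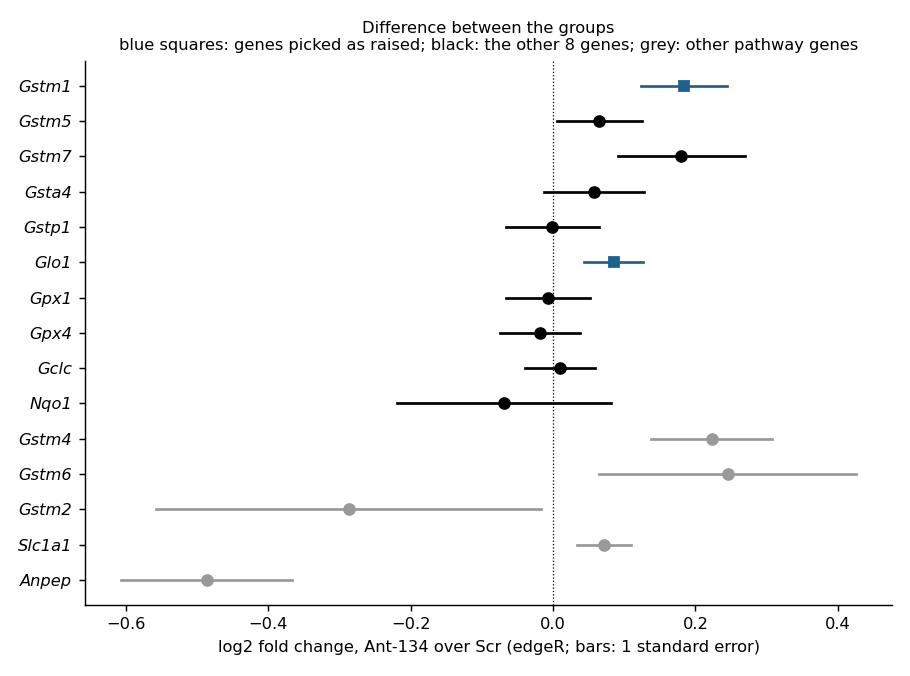
Log2 fold change (Ant-134 over Scr, edgeR) with bars of 1 standard error for the 10 genes and 5 other genes of the pathway. Blue squares mark Gstm1 and Glo1, which were picked as raised, black circles the other 8 genes, which lie between −0.07 and 0.18, and grey circles Gstm4, Gstm6, Gstm2, Slc1a1 and Anpep.

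The wider pathway was described with 115 further genes in 6 lists, of which 111 had a row in the table and 101 were tested. Of these, 51 were higher and 50 lower, with a median log2 fold change of 0.0023. At an unadjusted p value of 0.05 edgeR called 2 genes, Gstm4 on the higher side and Anpep on the lower, or 1.98% against 4.18% of all genes. The fold changes of 93.1% of the 101 genes were below 0.2 in size.
Anpep, an aminopeptidase that cleaves the dipeptide left after glutathione breakdown outside the cell, was at 4.33, 5.3, 3.88, 4.0 and 4.4 CPM in the Ant-134 mice and at 6.8, 6.31, 5.98 and 5.51 CPM in the Scr mice. Every Ant-134 mouse was below every Scr mouse, as for 0.895% of all genes. Anpep differed by −0.49 on the log2 scale, with an SE of 0.12 (edgeR, unadjusted p = 0.00126, adjusted p = 0.897), and the unadjusted p value was below 0.05 in all 9 fits without 1 mouse. On the log2(FPKM + 1) scale, which understates changes of low genes, the difference of Anpep in limma was −0.27. Anpep is also expressed by cells of vessels and meninges, whose marker sums are given above for the meninges and were, for endothelium, 183.2 to 232.1 CPM in Ant-134 mice against 199.5 to 270.5 CPM in Scr mice, with all 8 endothelium markers on the lower side, a median log2 fold change of −0.149 and 0 called in edgeR. The part of these cells in the result was not tested.

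Among the 15 other glutathione transferases tested, 7 were higher and 8 lower, with a median of −0.012. The most abundant by FPKM were Mgst3, a microsomal transferase (log2 fold change 0.02, edgeR, unadjusted p = 0.831), and Gsto1, an omega-class transferase (log2 fold change 0.01, edgeR, unadjusted p = 0.869).
Of the 17 genes of glutathione supply, 8 were higher and 9 lower, with a median of −0.02. Besides Anpep, the groups did not overlap for Slc1a1, a glutamate and cysteine transporter of neurons, which was at 115 to 123 CPM in the Ant-134 mice and 109 to 114 CPM in the Scr mice (log2 fold change 0.07, standard error 0.038, edgeR, unadjusted p = 0.0785). Every Ant-134 mouse lay above every Scr mouse, as for 0.647% of all genes. The unadjusted p value of Slc1a1 was 0.0499 in DESeq2 and 0.0423 to 0.0431 in the 3 fits of limma. It was above 0.05 in the other 16 alternatives. Among these it was 0.159 in edgeR without a filter and 0.056 to 0.179 in the edgeR fits without 1 mouse. Slc1a1 is among the genes that the study lists as raised in these same samples, so none of these values is independent evidence of its direction. Ggt7, of the gamma-glutamyltransferase family, had a log2 fold change of 0.03 (edgeR, unadjusted p = 0.496), and Slc3a2, the partner chain of the cystine transporter, had −0.07 (unadjusted p = 0.0974). Slc3a2 was at −0.089 (edgeR, unadjusted p = 0.0429) without Ant-134 replicate 5 and at −0.047 (unadjusted p = 0.295) without Scr replicate 3.
Of the 23 tested genes of peroxide removal, 16 were higher and 7 lower, with a median of 0.019 and 0 genes below the threshold in edgeR. The peroxiredoxins Prdx5 and Prdx2 led this list by FPKM, with log2 fold changes of 0.02 (edgeR, unadjusted p = 0.656) and 0.05 (unadjusted p = 0.301).

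The 16 tested genes of carbonyl and quinone removal were 8 higher and 8 lower, with 0 below the threshold in edgeR. Akr1a1, an aldehyde reductase, had a log2 fold change of −0.01 (edgeR, unadjusted p = 0.894), and Park7, which encodes the redox-sensitive protein DJ-1, had 0.09 (unadjusted p = 0.111). Park7 was at 0.12 (edgeR, unadjusted p = 0.0291) without Ant-134 replicate 4 and at 0.13 (unadjusted p = 0.0313) without Scr replicate 2. Of the 21 genes of the Nrf2 pathway, 9 were higher and 12 lower, with a median of −0.007 and 0 below the threshold. Fth1, the ferritin heavy chain, was at 1398 ± 88.5 CPM (SD, n = 5) with Ant-134 and 1349 ± 103 CPM (SD, n = 4) with Scr, for a log2 fold change of 0.05 (edgeR, unadjusted p = 0.386). Sqstm1, an adaptor that binds the Nrf2 inhibitor Keap1, had a log2 fold change of −0.005 (edgeR, unadjusted p = 0.911).
The selenoprotein genes, needed because Gpx1 and Gpx4 contain selenocysteine, were 3 higher and 6 lower of 9 tested, with Selenop, a selenium carrier, at a log2 fold change of 0.00 (edgeR, unadjusted p = 0.95) and Sephs2, an enzyme of selenium activation, at −0.04 (unadjusted p = 0.573).

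**Figure D5:**
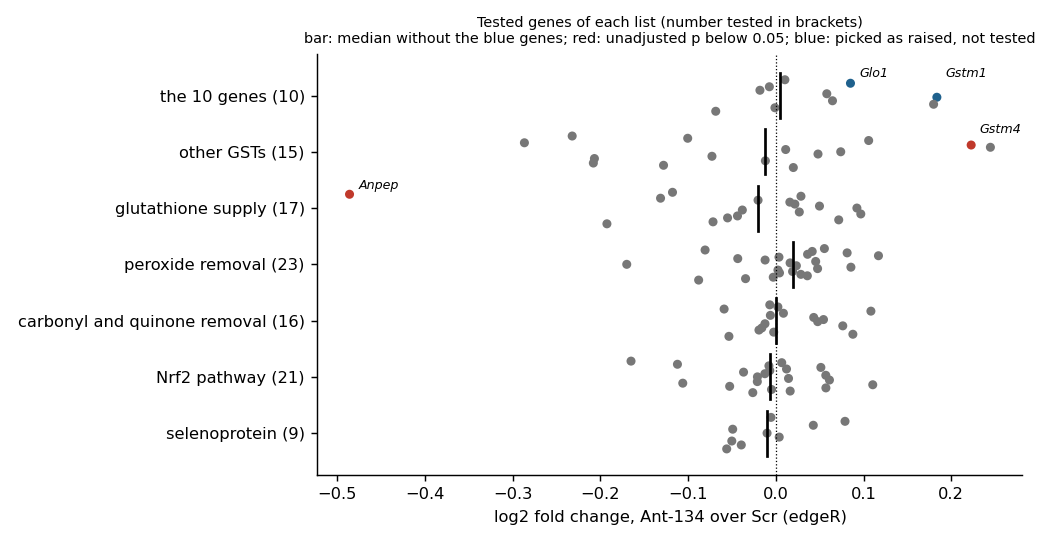
Log2 fold change (Ant-134 over Scr, edgeR) of every tested gene of the 10 genes and of the 6 pathway lists, 1 point per gene, with the number tested in brackets and a bar at each median, which leaves out the blue genes. Red marks an unadjusted p value below 0.05 (Gstm4 and Anpep), blue marks Gstm1 and Glo1, and the medians lie between −0.02 and 0.019.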

How the data were processed

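The authors sequenced poly-A libraries as paired 150-base reads, processed them with CASAVA 1.8, aligned them to GRCm38 (mm10) with HISAT2 2.0.5 and deposited raw counts per gene from featureCounts 1.5.0-p3. The deposited FPKM values equalled counts per gene length and library total times a constant of 0.978 to 1.007. The tests used edgeR 4.0.16 (R 4.3.3) with filterByExpr (minimum count 10), TMM, the robust quasi-likelihood test without covariates and Benjamini-Hochberg adjustment over 19782 genes. The biological coefficient of variation was 11.9%. Replicate libraries all differed by more than counting noise (chi-square per gene 8.3 to 21.1). The floor of 3 counts corresponds to 0.0709 to 0.107 CPM and covers counting error only, since duplicates cannot be told apart.

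The 10 genes, the pathway lists and the markers were chosen with earlier results of these data known. Named genes were the 10 genes, all Gstm and Gstp genes, pathway genes with an unadjusted p value below 0.05 or groups that did not overlap, the 2 per list with the highest mean FPKM, the genes next to Glo1, the 3 genes most like Gstm1 and Glo1, Ube3a and Mir134, and, after their counts were seen, 4933431E20Rik and the copies of Gstp1, Glo1 and Gpx4. GENCODE M21 held 99.8% of the gene identifiers, and 8 of the 10 genes had the same coordinates there. Identity was computed between coding sequences in place of proteins. Alternatives were DESeq2 1.42.0 without a filter, its size factors in edgeR, no filter, a stricter filter of 10 counts in each library, no robust estimation, a replicate block, a Y-linked covariate, limma 3.58.1 on log2 FPKM with a pseudocount of 1 or 0.1 for genes with a mean FPKM of 0.1 or more, limma without that filter, leaving out each mouse and, chosen after seeing the data, summing copies. The edgeR script was tested on simulated data. Each sample was a separate mouse.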

Additional observations from a re-analysis of the deposited data

Results flagged for a closer look

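In 3 of the 54 groups of values examined, 1 mouse lay far from the others by Dixon's ratio, where chance gives about 1 in 20, or 2.7. Gstp1 was at 70.6 CPM in Scr replicate 2 and at 58.8 to 60.6 CPM in the other Scr mice, and without that mouse its log2 fold change was 0.065 (edgeR, unadjusted p = 0.293). Slc3a2 was at 130 CPM in Scr replicate 3 and at 121 to 123 CPM in the others. Sqstm1 was at 377 CPM in Scr replicate 1 and at 401 to 403 CPM in the others.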

How the results depend on the processing

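Over the alternatives the log2 fold change of Gstm1 was between 0.17 and 0.19 and that of Glo1 between 0.083 and 0.090. The same-numbered mice of the groups correlated at −0.115 to 0.012 over 4 pairs and 0 mice matched their own number best. This gave no sign that the numbers pair the mice. The study calls the Scr mice littermates, and an effect of shared litters was not tested. With the replicate block edgeR called 808 genes at an unadjusted p value below 0.05 and 2 after adjustment. In that fit the unadjusted p value of Gstm4 was 0.0676 and the 2 pathway genes called were Anpep and Me1. The 827 genes below 0.05 became 1775 in edgeR without a filter and 1467 in limma without a filter, and 629 (without Scr replicate 3) to 973 when 1 mouse was left out. After adjustment DESeq2 called 16 genes, edgeR without a filter 14, and edgeR without 1 mouse 0 to 17, with 17 without Ant-134 replicate 1. Of the 8 genes, 1 (Gstm7) passed 0.05 without a filter (edgeR, unadjusted p = 0.0369), and 0 to 1 passed without 1 mouse. Of the pathway genes, 4 passed in DESeq2 (Anpep, Gstm4, Slc1a1 and Slc7a11) and 4 in each fit of limma (Anpep, Gstm4, Prdx4 and Slc1a1). DESeq2 called 1027 of its 37435 genes, and the limma fits called 1083 and 1101 of 23670 and 1467 of 37454. Slc7a11 also passed in edgeR with the stricter filter and without robust estimation. Without 1 mouse 2 to 5 pathway genes passed (5 without Ant-134 replicate 1), with Anpep in all 9 of these fits and Gstm4 in 7. The cause of these changes was not tested.

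Values near 0 changed sign. Gstp1 was 0.0041 in DESeq2, 0.0017 with its size factors, 0.0074 with the Y-linked covariate, 0.0035 in the 3 fits of limma and 0.018 with copies summed, Gsto1 was −0.0024 with the Y-linked covariate, Sqstm1 was 0.00013 in DESeq2 and Selenop was −0.044 with the replicate block. Without 1 mouse the ranges were −0.043 to 0.065 for Gstp1, −0.050 to 0.023 for Gpx1, −0.049 to 0.024 for Gpx4, −0.017 to 0.031 for Gclc, −0.14 to 0.0019 for Nqo1, −0.039 to 0.084 for Mgst3, −0.040 to 0.043 for Gsto1, −0.0057 to 0.055 for Prdx5, −0.028 to 0.026 for Akr1a1, −0.030 to 0.017 for Sqstm1, −0.042 to 0.052 for Selenop and −0.070 to 0.026 for Sephs2. Ranges that kept their sign were 0.016 (without Scr replicate 3) to 0.098 for Fth1, 0.027 to 0.062 for Prdx2 and 0.010 to 0.034 for Ggt7. No call was made for any of these genes under any alternative. Among the 10 genes Nqo1 had the fewest counts.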
